A study of Mus musculus with 4 samples.

Results

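The Early B-cell factor (Ebf) family was described in whole brains of mouse embryos lacking Sox4 and Sox11. Its 4 genes, Ebf1, Ebf2, Ebf3 and Ebf4, were taken as every probe set whose single symbol in the platform annotation was one of these names, which gave 12 probe sets out of 45037 and 4 genes out of 18193. The series title speaks of the developing spinal cord, whereas the labels of all 4 samples name whole brain, and the forebrain genes Neurod6 (12447.1 and 14778.1 in knockouts, 11545.4 and 11632.5 in controls) and Tbr1 (2496.5 and 2716.1 in knockouts, 3666 and 3584.5 in controls) gave signals on every array. The 2 double-knockout arrays came from embryos that were flox/flox for Sox4, flox/flox for Sox11 and carried Brn4::Cre, and the 2 control arrays from embryos with the same Sox4 flox/flox and Sox11 flox/flox alleles and no Cre in their label. All embryos were of a mixed 129SvJ/C57Bl/6J background at embryonic day 14.5, and controls carried both floxed genes too. Brn4 is another name of Pou3f4, so the deletion is limited to cells in which that driver was active, and a whole brain also holds cells in which both genes remain. Replicates are labelled biological, with no word on pooling of embryos, so every p-value here reflects how much these arrays varied and no more.

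Ebf proteins are transcription factors that bind DNA as dimers through a zinc-coordinating domain and recognise a palindromic site. Ebf1 was found both as a factor of early B cells and as a factor of olfactory sensory neurons. In the nervous system Ebf genes are switched on as progenitors leave the cell cycle, and they act in neuronal differentiation and migration. Ebf1 is known for its role in the striatum and in facial motor neurons, Ebf2 for its role in Purkinje cell migration in the cerebellum, and Ebf2 and Ebf3 mark Cajal-Retzius cells of the cortical surface. Sox4 and Sox11, the deleted genes, are SoxC transcription factors of newly formed neurons.

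Values were MAS5 signals, a probe set summary on a linear scale that the authors had scaled to a common level on each array, and a log2 change is the knockout minus the control mean of log2(signal + 16). Of the 45037 probe sets, 27022 were bright enough to be tested with limma. Median signals were 263.2 to 268.6 on the knockout arrays and 262 to 286.7 on the control arrays, and ratios of 3′ to 5′ signal at the Gapdh controls were 0.829 to 0.863 in knockouts and 0.843 to 0.869 in controls. Sox11 was down at 6 of its 6 probe sets in the limma fit, between 2.29-fold and 9.08-fold. Of 6 tested Sox4 probe sets, 4 fell by 2.13-fold to 6.48-fold, 1 rose and 1 did not pass. The rise, at 1419157_at, was 3.55-fold, with means of 16950 in knockouts and 4799 in controls. The probe set that did not pass, 1433575_at, was the brightest of Sox4. Its means were 37770 in knockouts and 35430 in controls, a log2 change of 0.09 ± 0.05. The 2.13-fold fall was at a probe set that averaged 144.5 in knockouts, under the filter's 154.6, and 325.6 in controls, so it was tested only through the control arrays. Probe positions were not used here, and a probe set outside the deleted part checks nothing.

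Ebf1, Ebf2 and Ebf3 were lower in the double knockout at each of their 10 tested probe sets, at 37.3% to 51.7% of the control signal, while the 1 probe set of Ebf4 was higher. The family was chosen by its knockout against control values on these same arrays, so those values are given as a description with no test. On all 10 probe sets both knockout arrays lay below both control arrays, as at 31.6% of all tested probe sets, and the log2 changes ran from -1.41 to -0.94. In the limma fit across all tested probe sets, 10 of the 11 Ebf probe sets passed as lower at an adjusted p under 0.05, where 11.6% of all tested probe sets fell, and nothing is read from that count. In whole-brain RNA, fewer cells that express a gene and less of its RNA per cell cannot be told apart.

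Ebf1, the member named for the B lineage, had 5 probe sets. The brightest, 1416301_a_at, read 1102.3 and 1150.1 on the knockout arrays, against 3218.4 and 2817.9 on the control arrays. The knockout mean was 1126 ± 33.8 and the control mean 3018 ± 283 (SD, n = 2 each). The log2 change was -1.41 ± 0.11, where the error is the SE of the fit. The groups stood well apart, and the 2 controls differed from each other by more than the 2 knockouts did. The probe set 1416302_at read 726.3 and 783.5 in knockouts and 1931.3 and 1728.6 in controls, a log2 change of -1.26 ± 0.13. For 1439789_at the signals were 711.4 and 739.4 in knockouts and 1698.5 and 1783 in controls, with a log2 change of -1.24 ± 0.12. The smallest Ebf1 difference was at 1448293_at, with 941.8 and 1044.7 in knockouts, 2353.5 and 1893.3 in controls, and a log2 change of -1.08 ± 0.14. At none of these 4 did a knockout array reach the level of a control array. The fifth, 1457441_at, read 59 and 3.3 in knockouts and 41.8 and 57.4 in controls. It lay under the signal filter, at 154.6, its groups overlapped, and it says nothing of the gene's level. The annotation traces 3 of the 5 Ebf1 probe sets to a single sequence record, so they are not independent readings.

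**Figure D1:**
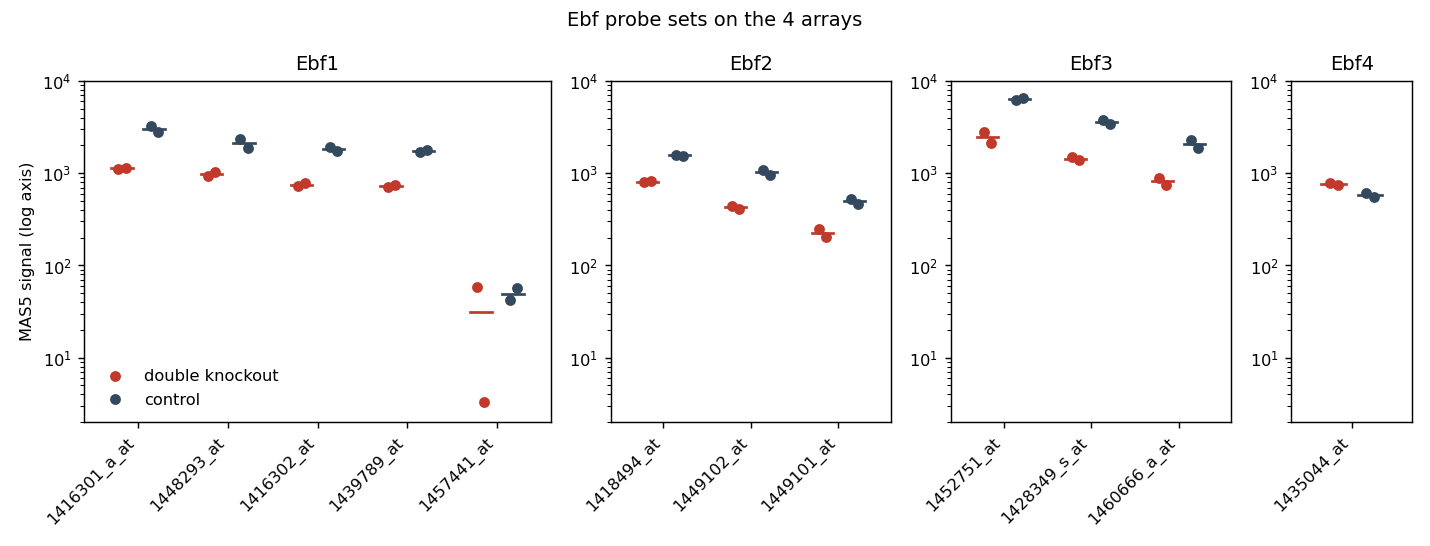
MAS5 signal on a log axis for the 12 Ebf probe sets, with a point per array (2 double-knockout arrays left, 2 control arrays right) and a bar at each group mean. Knockout points lie below control points at 10 probe sets of Ebf1, Ebf2 and Ebf3, above them at the Ebf4 probe set, and overlap at the dim Ebf1 probe set 1457441_at.

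Ebf2, a factor of Cajal-Retzius and cerebellar neurons that is also known from brown fat, had 3 probe sets. The brightest, 1418494_at, read 801.3 and 814.7 in knockouts, against 1579.6 and 1545.2 in controls, with a log2 change of -0.94 ± 0.12. The pairs of replicates lay close together, and this was the smallest change among the 10 probe sets of Ebf1, Ebf2 and Ebf3. The other two differed by somewhat more. For 1449102_at the signals were 445 and 414.8 in knockouts and 1089.6 and 965.4 in controls, with a log2 change of -1.22 ± 0.15. For 1449101_at they were 246.5 and 201.3 in knockouts and 525.8 and 465.9 in controls, with a log2 change of -1.10 ± 0.20. All 3 were designed from 1 sequence record.

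Ebf3, the close relative of Ebf1 that is also expressed in Cajal-Retzius cells and in the hindbrain, had 3 probe sets with nearly the same change. The annotation traces 2 of the 3 to a single sequence record, so they are not independent readings. At 1452751_at the signals were 2823.8 and 2118 in knockouts and 6195.8 and 6494.8 in controls, a log2 change of -1.37 ± 0.13. Its 2 knockout arrays differed more than those of any other tested Ebf probe set, and the log2 change was -1.58 without knockout replicate 1 and -1.16 without knockout replicate 2. At 1460666_a_at the signals were 895.5 and 738.7 in knockouts and 2266.9 and 1902 in controls, a log2 change of -1.34 ± 0.14. At 1428349_s_at they were 1495.6 and 1392.2 in knockouts and 3776.7 and 3405.3 in controls, a log2 change of -1.30 ± 0.11. Knockout replicate 1 was the higher of the 2 knockouts at all 3 probe sets. The suffix s marks probes that can match transcripts of more than 1 gene, so this last probe set may hold signal from elsewhere.

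Ebf4, the least studied member, was higher in knockouts, by a smaller amount. Its only probe set, 1435044_at, read 774.7 and 748.3 in knockouts and 609.5 and 546.5 in controls. The means were 761.5 ± 18.7 in knockouts and 578 ± 44.5 in controls (SD, n = 2 each), with a log2 change of 0.39 ± 0.15. The groups did not overlap, and the annotation gives the gene no second probe set to set beside it. This was the 1 of the 11 tested Ebf probe sets that did not pass in the limma fit. The family was chosen by these values, so nothing is read from that.

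**Figure D2:**
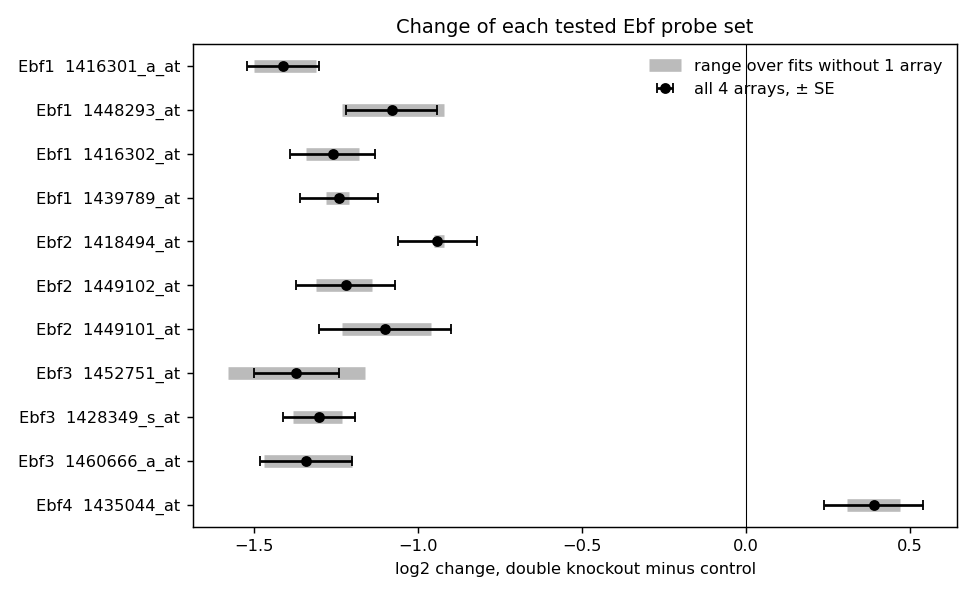
Log2 change, double knockout minus control, at the 11 tested Ebf probe sets. Points are values from all 4 arrays with the SE, and grey bars span the values with 1 array left out. The probe sets of Ebf1, Ebf2 and Ebf3 lie between -1.41 and -0.94 and that of Ebf4 at 0.39, and no grey bar crosses 0.

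The family was chosen by these changes, so their place among all tested probe sets is a description and no finding. A log2 change as low as that of the brightest Ebf1 probe set or lower was found at 114 of the 27022 tested probe sets (0.422%). The corresponding number was 131 (0.485%) for the brightest Ebf3 probe set and 580 (2.15%) for that of Ebf2. For Ebf4, 86.3% of tested probe sets had a lower or equal change. The number of probe sets that fell at least 2-fold with an adjusted p under 0.05 was 447 (1.65%).

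**Figure D3:**
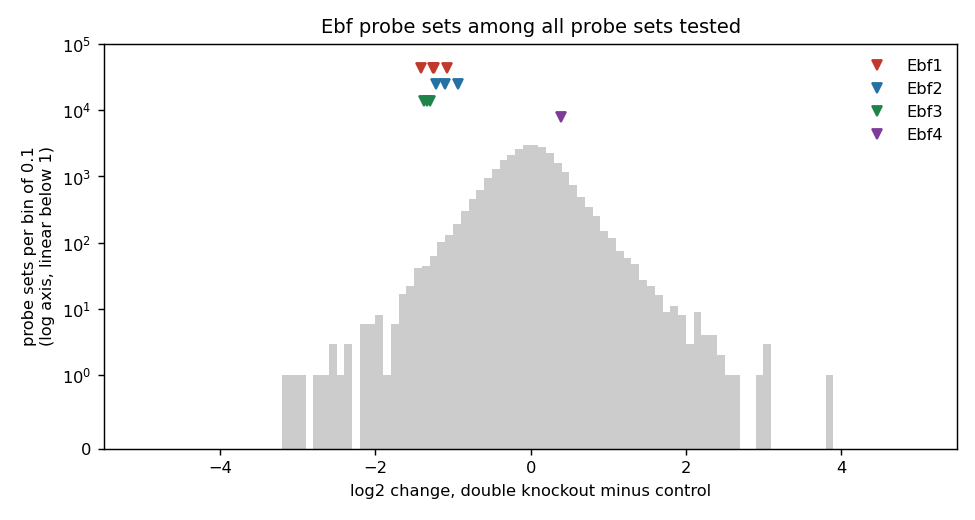
Log2 change, double knockout minus control, of the 27022 tested probe sets in bins of 0.1, with the number per bin on a log axis that is linear below 1. Triangles mark the probe sets of each Ebf gene, at heights that carry no value. Those of Ebf1, Ebf2 and Ebf3 sit in the left tail and that of Ebf4 right of the centre.

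The profiles of the Ebf genes over the 4 arrays were compared with those of 12485 other genes, each at its brightest probe set and after subtracting its own mean log2 value. Likeness was the root mean square distance between 2 profiles on the log2 scale, over 4 arrays, and is a description only. The nearest genes to Ebf1 were Elovl2, an elongase of very long fatty acids (distance 0.0469), C2cd4b (0.0625), Zfp811 (0.0696) and Bend5 (0.0700). Elovl2 read 1215.1 and 1344.7 in knockouts and 3469.5 and 3249.7 in controls. C2cd4b, at 96.7 and 89.6 in knockouts and 292.7 and 241.7 in controls, passed the filter of 154.6 only through the control arrays. The nearest to Ebf3 were Dpysl4, a collapsin response mediator of growing axons (0.0542), Kalrn (0.0681), Map3k9 (0.0713) and Cacna1h, a T-type calcium channel subunit (0.0833). The nearest to Ebf2 were Plxnb1, a semaphorin receptor (0.00195), Ypel1 (0.0210), Znrf1 (0.0214) and Klhl24 (0.0214). Kalrn read 2198.6 and 1545.6 in knockouts and 4288.2 and 4527.8 in controls, with the higher knockout signal in replicate 1 as for Ebf3. Within a distance of 0.1 lay 9 genes for Ebf1, 10 for Ebf3, 113 for Ebf2 and 1160 for Ebf4, so the closeness of a neighbour means less for Ebf2 and least for Ebf4. The nearest to Ebf4 were Exosc1, a subunit of the RNA exosome (0.0077), Aldh16a1 (0.00953), Ebp, a sterol isomerase (0.0125) and Scfd1 (0.0131). Between Ebf1 and Ebf3 the distance was 0.191, with 73 other genes nearer to Ebf1 than Ebf3 was. From Ebf2 it was 0.241 to Ebf1, 0.267 to Ebf3 and 0.666 to Ebf4. Nearer to Ebf2 than Ebf1 was lay 852 other genes, and 1072 lay nearer than Ebf3.

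Because 3 of the 4 genes were lower together, the start-site regions that were at hand for the family were read from RefSeq (build GRCm38.p6). Each ran from 250 bases before to 50 bases after a start site. The table held 2 such windows for Ebf1, 1 for Ebf3 and 1 for Ebf4, and none for Ebf2. The start-site region of Ebf2, 1 of the 3 lower genes, was therefore not read. Both strands were searched for CCCNNGGG, the core of the Ebf palindrome and its own reverse complement, and for the Sox-type words ACAAAG and ACAAT, which do not contain one another. Of all 32851 windows of 300 bases in the table, 13.7% held CCCNNGGG, 18.7% ACAAAG and 31% ACAAT. The windows with a match are shown in the direction of the gene, with the match in capitals.
Ebf1, second window, chr11:44619978-44620277, plus strand: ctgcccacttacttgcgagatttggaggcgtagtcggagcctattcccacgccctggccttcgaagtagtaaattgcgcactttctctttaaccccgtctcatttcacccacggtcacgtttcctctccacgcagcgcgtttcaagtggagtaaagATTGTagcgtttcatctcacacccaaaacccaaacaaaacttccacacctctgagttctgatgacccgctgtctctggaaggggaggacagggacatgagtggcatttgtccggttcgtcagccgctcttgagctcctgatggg
Ebf3, chr7:137314396-137314695, minus strand: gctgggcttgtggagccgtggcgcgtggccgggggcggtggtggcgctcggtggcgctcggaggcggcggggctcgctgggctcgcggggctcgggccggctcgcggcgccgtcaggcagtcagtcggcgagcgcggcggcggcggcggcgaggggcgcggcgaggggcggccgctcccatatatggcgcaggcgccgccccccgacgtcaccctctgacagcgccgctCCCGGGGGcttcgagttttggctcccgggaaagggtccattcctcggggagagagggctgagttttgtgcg
The Ebf1 window held 1 ACAAT match, on the reverse strand with its first base at position -94 from the start site. The Ebf3 window held 1 match to the Ebf core, at position -21. The Ebf1 window at chr11:44617850-44618149 and the Ebf4 window at chr2:130295689-130295988 held none of the 3 words, which says only that these letters are not in those windows. Only that Ebf1 window reaches the outer start of its gene, which spans chr11:44618100-45008096. The printed Ebf1 window, the Ebf3 window and the Ebf4 window lie inside their genes. Ebf3 spans chr7:137193671-137322805 on the minus strand, and Ebf4 spans chr2:130295126-130370482. The base composition differed widely, with G and C at 53% of the printed Ebf1 window, 36.7% of the other Ebf1 window, 77% of the Ebf3 window and 74.3% of the Ebf4 window.

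Partners of Ebf proteins were examined next, from a list of 16 factors that bind Ebf proteins or act with them, of which 14 were measured. Zfp521 and Zfp423, zinc finger proteins that bind Ebf factors and restrain or redirect them, fell, as did Smarca4, the motor of a chromatin remodelling complex. Zfp521 read 2761.5 and 2861 in knockouts and 5097.2 and 4876.4 in controls, with a log2 change of -0.82 ± 0.09 (limma adjusted p = 0.000217), and both of its tested probe sets fell. Zfp423 read 1743.1 and 1284.8 in knockouts and 2227.3 and 2438.3 in controls (log2 change -0.63 ± 0.14, adjusted p = 0.0112), and Smarca4 fell by 0.48 on the log2 scale (adjusted p = 0.00531). The groups of all 3 were apart on the arrays. The 3 that rose were Foxo1 (0.55, adjusted p = 0.0172), a forkhead factor of early B cells, Ets1 (0.42, adjusted p = 0.0469), an Ets factor, and Tcf4 (0.21, adjusted p = 0.0325), an E protein. The other 8 did not pass, among them the E proteins Tcf3 (0.02) and Tcf12 (0.03). Over all tested probe sets, Foxo1 rose at 1 of 3, Ets1 at 1 of 2 and Tcf4 at 3 of 6. Tcf12 rose at 1 and fell at 2 of its 5. In all, 3 of 14 fell and 3 rose, with a median log2 change of -0.02, against 11% of 12489 genes that fell, 16.3% that rose and a median of 0.06 over all genes. In limma without knockout replicate 1 or without control replicate 2 the count that rose was 0 (3 at an unadjusted p under 0.05 in either fit), and it was 1 without knockout replicate 2. In limma without the variance trend Zfp521 alone of the 6 kept its call, while Smarca4 (-0.48, adjusted p = 0.0855), Zfp423 (-0.63, adjusted p = 0.0799), Foxo1 (0.55, adjusted p = 0.0587), Ets1 (0.42, adjusted p = 0.155) and Tcf4 (0.21, adjusted p = 0.24) did not pass. The calls lost with an array left out were those of Zfp423 without knockout replicate 2 (-0.42, adjusted p = 0.0748), of Foxo1 without control replicate 2 (0.45), knockout replicate 1 (0.48) or knockout replicate 2 (0.62), of Ets1 without the same arrays (0.22, 0.45 and 0.40), and of Tcf4 without control replicate 1 (0.20), control replicate 2 (0.22) or knockout replicate 1 (0.18).

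Proneural and neuronal basic helix-loop-helix factors, several of which act upstream of Ebf genes in neurogenesis, moved in both directions. Measured were 9 of 13, of which 4 rose, 2 fell and 3 did not pass, and their median log2 change was 0.23, against 16.3% of all genes that rose, 11% that fell and a median of 0.06. Neurod4, a factor of neuronal differentiation, read 967.3 and 965.6 in knockouts and 270.3 and 268.7 in controls, a log2 change of 1.78 ± 0.16 (limma adjusted p = 7.97e-05). Neurog2, a proneural factor of the dorsal forebrain, read 7230.5 and 7855.8 in knockouts and 5099.7 and 4338.5 in controls (0.68 ± 0.10, adjusted p = 0.000986). Nhlh1 (0.71) and Neurod1 (0.28) were the others that rose. Nhlh2, a factor of young neurons, read 2343.9 and 2662.3 in knockouts and 4620.8 and 4266.4 in controls (-0.83 ± 0.10, adjusted p = 0.000445). Atoh1, the proneural factor of the rhombic lip, read 121.4 and 124 in knockouts and 355.2 and 224.4 in controls (-1.11 ± 0.29, adjusted p = 0.0197). Both knockout signals lay under the filter's 154.6, so Atoh1 was tested only through the control arrays, where it is high. Thus Nhlh1 and Nhlh2, a pair of close relatives, were called in opposite directions. The count that rose was 2 without control replicate 2 or knockout replicate 2, and the count that fell was 1 without control replicate 1, knockout replicate 1 or knockout replicate 2. Nhlh1 did not pass without control replicate 2 (0.47), knockout replicate 1 (0.77) or knockout replicate 2 (0.65), Neurod1 without any 1 of the 4 arrays (0.23 to 0.34) or with the mean of its probe sets (0.21, adjusted p = 0.0575), and Atoh1 without knockout replicate 1 (-1.09) or knockout replicate 2 (-1.12).

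Genes of the striatum, where Ebf1 acts in projection neurons, held several transcription factors that fell. Measured were 19 of 24, of which 7 fell, 1 rose and 11 did not pass, where 11% of all genes fell and 16.3% rose. Their median log2 change was -0.29, against 0.06 over all genes. In whole-brain RNA, the region in which these genes changed was not tested. Foxp2, a forkhead factor, read 3325.2 and 2917.5 in knockouts and 8701.9 and 9188.9 in controls (-1.52 ± 0.09, limma adjusted p = 9.63e-06). Zfhx3, a zinc finger homeobox factor, read 5995.9 and 5624.6 in knockouts and 13462.8 and 13656.3 in controls (-1.22 ± 0.07, adjusted p = 9.63e-06). Zfp503, a zinc finger protein of striatal development, fell by 0.80 on the log2 scale. Drd1, the dopamine receptor of direct pathway neurons, read 777.9 and 671.3 in knockouts and 416.4 and 369.7 in controls (0.86 ± 0.17, adjusted p = 0.00484). Only 1 of the 2 tested Drd1 probe sets rose, the brightest, and without knockout replicate 1 that probe set did not pass either (0.75). The peptide genes of striatal neurons Tac1 (-0.11), Pdyn (0.15) and Penk (0.13) did not pass.

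Genes of Cajal-Retzius cells, which express Ebf2 and Ebf3, were mixed. Measured were 16 of 17, of which 7 fell, 3 rose and 6 did not pass, where 11% of all genes fell and 16.3% rose. Their median log2 change was -0.21, against 0.06 over all genes. The largest falls were of the LIM homeobox genes Lhx1, at 1071.6 and 1177.1 in knockouts and 2569 and 1995.1 in controls (-1.0 ± 0.14, limma adjusted p = 0.000825), and Lhx5 (-0.96, adjusted p = 0.00255). Barhl2 (-0.90), a homeobox factor, and Zic2 (-0.73), a zinc finger factor of the midline, also fell. The other 3 that fell were Cxcr4 (-0.54), a chemokine receptor, Tbr1 (-0.47), a T-box factor of early cortical neurons, and Car10 (-0.38), and those that rose were Dmrt3 (0.65), Cdkn1a (0.48) and Dmrta2 (0.37). Lhx1, Lhx5, Barhl2 and Zic2 are expressed in other brain regions as well. Reln, Trp73 and Calb2, long used to mark these cells, were among the 6 that did not pass. Reln, the secreted signal of Cajal-Retzius cells, read 14760.6 and 14565.6 in knockouts and 12338.7 and 13665.3 in controls (0.18 ± 0.07, adjusted p = 0.106), Trp73 had a log2 change of -0.25 ± 0.20 and Calb2 one of 0.13 ± 0.11. The count that fell was 4 without knockout replicate 1 and 4 without knockout replicate 2, and the count that rose was 1 without control replicate 2, 0 in limma without knockout replicate 1 (2 at an unadjusted p under 0.05) and 1 without knockout replicate 2. Barhl2 did not pass without control replicate 1 (-0.73), knockout replicate 1 (-1.0) or knockout replicate 2 (-0.81), nor Zic2 without knockout replicate 1 (-0.61). Cxcr4 lost its call without knockout replicate 2 (-0.51), and Car10 lost it whichever single array was removed (-0.41 to -0.35), while Tbr1 kept it in all 4 such fits. Dmrt3 did not pass without control replicate 2 (0.59), knockout replicate 1 (0.55) or knockout replicate 2 (0.75). Cdkn1a did not pass without control replicate 1 (0.44) or knockout replicate 1 (0.40), nor Dmrta2 without control replicate 2 (0.21), knockout replicate 1 (0.36) or knockout replicate 2 (0.38).

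Transcription factors and markers of midbrain, hindbrain, motor and cerebellar neurons, among which Ebf genes are widely expressed, showed the lowest median of the 13 lists. Measured were 18 of 30, of which 12 fell, 2 rose and 4 did not pass, where 11% of all genes fell and 16.3% rose. Their median log2 change was -0.75, against 0.06 over all genes. Gata3, a factor of brainstem and spinal interneurons, read 254.9 and 200.5 in knockouts and 1042.9 and 1127.6 in controls (-2.18 ± 0.18, limma adjusted p = 5.14e-05). Pax7, a paired box factor of the dorsal midbrain and spinal cord, read 356.6 and 230.8 in knockouts and 716 and 889.5 in controls (-1.42 ± 0.22, adjusted p = 0.00142). Nr4a2 (-1.10), a factor of dopamine neurons, and Barhl1 (-1.06), a homeobox factor of the cerebellum and midbrain, fell too, and Barhl1 did not pass without knockout replicate 2 (-0.70). The 2 that rose were Tal2 (0.71), a helix-loop-helix factor of midbrain GABAergic neurons, and Calb1 (0.54), a calcium-binding protein. Tal2 did not pass without control replicate 1 (0.65), knockout replicate 1 (0.56) or knockout replicate 2 (0.86), nor Calb1 without knockout replicate 1 (0.43). Nkx6-1, among the 12, averaged under the filter's 154.6 in knockouts (174.8 and 131.7, against 290.7 and 295.6 in controls) and was tested only through the control arrays. The same holds for Lhx3 (means of 147.1 in knockouts and 237.8 in controls) and Tlx3 (146.8 and 204.4), which did not pass. These genes enter the list's median, which the filter thus helps to lower. How far the 12 that fell share cells with Ebf1, Ebf2 and Ebf3 was not tested.

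**Figure D4:**
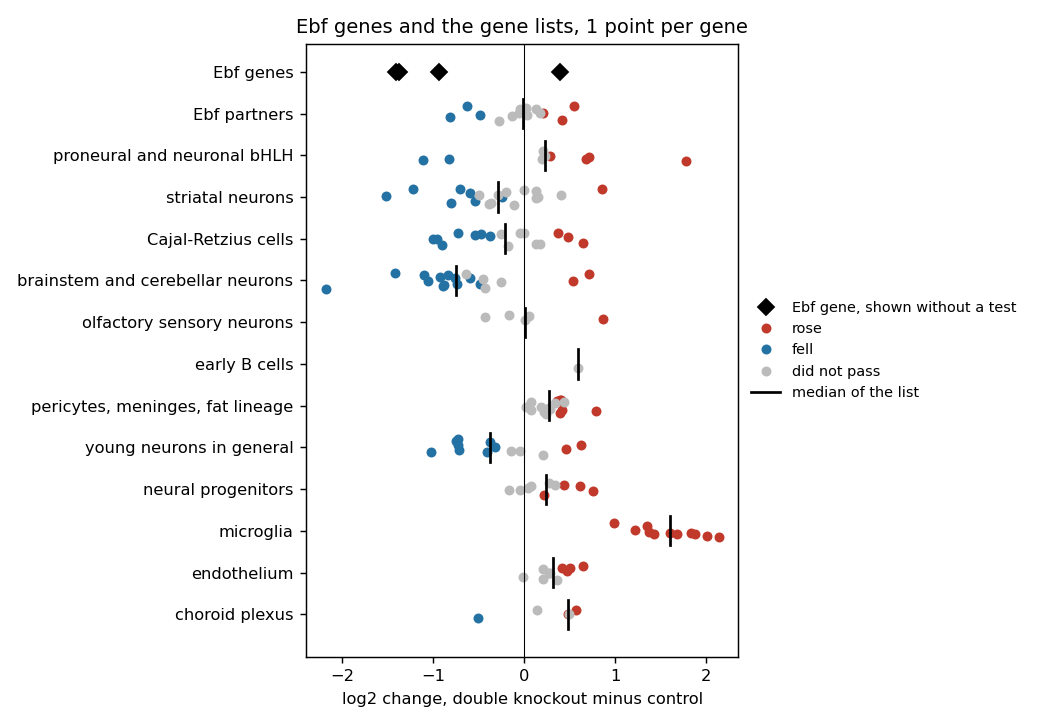
Log2 change, double knockout minus control, with a point per gene at its brightest probe set. Ebf genes are diamonds in the top row, and the rows under it hold the 13 lists, with genes that rose in red, genes that fell in blue, genes that did not pass in grey and a bar at each list's median. Medians run from -0.75 in brainstem and cerebellar neurons to 1.6 in microglia.

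Outside the brain Ebf proteins are best known in olfactory neurons and B cells. Of 13 genes of olfactory sensory neurons 5 were measured and 1 of them rose, Lhx2 (0.87 ± 0.14, limma adjusted p = 0.00228), a LIM homeobox factor also of cortical progenitors. That 1 of 5 stands beside 16.3% of all genes that rose, and Lhx2 did not pass without the variance trend (0.87, adjusted p = 0.059). Gnal, a G protein subunit of olfactory and striatal neurons, read 1568.1 and 1168.9 in knockouts and 1662.1 and 2028.1 in controls (-0.43 ± 0.16, adjusted p = 0.0699), and with the mean of its probe sets it passed (-0.78, adjusted p = 0.00142). Of 15 early B-cell genes activated by Ebf1, 1 was bright enough to be tested. That gene, Igll1, read 256.8 and 264 in knockouts and 267.6 and 102.5 in controls (0.59 ± 0.37, adjusted p = 0.274), and its groups overlapped.

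Markers of other cells that a whole brain holds moved with the genotype as well. Pericytes, meningeal fibroblasts and the fat lineage also express Ebf genes, and of 18 measured genes of these cells 6 rose and 12 did not pass, against 16.3% of all genes that rose, with a median log2 change of 0.28 and summed signals of 52445 and 53798 in knockouts and 40956 and 42261 in controls. The largest rises were of Cebpb (0.79), Rgs5 (0.42), Col1a2 (0.40) and Col3a1 (0.39), and the count that rose was 3 without control replicate 1, 2 without knockout replicate 2, 3 without the signal filter and 0 in limma without the variance trend (5 at an unadjusted p under 0.05). Rgs5 did not pass with the mean of its probe sets (0.25, adjusted p = 0.0805), nor without control replicate 1 (0.22), knockout replicate 1 (0.35) or knockout replicate 2 (0.49), and Cebpb did not pass without control replicate 2 (0.40), knockout replicate 1 (0.76) or knockout replicate 2 (0.83). None of the 18 fell in limma (0 at an unadjusted p under 0.05). Of 13 genes of young neurons in general, 8 fell, 2 rose and 3 did not pass (median -0.38), where 11% of all genes fell and 16.3% rose, with summed signals of 141706 and 136584 in knockouts and 171000 and 178835 in controls. Ina (-1.02), Tubb3 (-0.75), Dcx (-0.73) and Nefm (-0.73), genes of the neuronal cytoskeleton, had the largest falls, and the count that rose was 1 without knockout replicate 1. The 2 that rose were Snap25 (0.62) and Syt1 (0.46), and Map2, Rbfox3 and Gap43 did not pass. Snap25 rose at 1 of its 2 tested probe sets, and Syt1 rose at 1 and fell at 1 of its 4. Without the variance trend 5 fell and 1 rose. At the brightest probe set, Ebf1 (-1.41) and Ebf3 (-1.37) had a lower log2 change than Ina, the lowest of these 13 genes, and Ebf2 (-0.94) did not. Over the 10 tested probe sets of Ebf1, Ebf2 and Ebf3, 9 were lower than Ina, all but that brightest probe set of Ebf2. The Ebf genes were chosen by those values, so nothing is read from that order. Progenitor genes rose in 4 of 10 (median 0.24), namely Mki67 (0.76), Nes (0.61), Pax6 (0.44) and Vim (0.22). The count was 2 without control replicate 2 or knockout replicate 1. Nes did not pass with the mean of its probe sets (0.22, adjusted p = 0.275) or without knockout replicate 1 (0.55), Pax6 without control replicate 2 (0.36) or knockout replicate 1 (0.39), and Vim without control replicate 1 (0.27), control replicate 2 (0.17) or knockout replicate 2 (0.15). Microglial markers rose in 11 of 11 measured (median 1.60), with summed signals of 24023 and 21789 in knockouts and 6744 and 7541 in controls, and C1qa (2.14), C1qb (2.01) and C1qc (1.88), the complement C1q chains, and Aif1 (1.83) had the largest rises. Endothelial markers rose in 4 of 10 (median 0.32), namely Tek (0.65), an angiopoietin receptor, Cdh5 (0.50), Kdr (0.47) and Cldn5 (0.42). In limma without control replicate 1 or without knockout replicate 1 the count was 0 (4 at an unadjusted p under 0.05 in either fit), it was 1 without knockout replicate 2, and Tek and Cldn5 did not pass in any of these 3 fits (0.42 to 0.71 and 0.35 to 0.43). Cdh5 lost its call whichever single array was removed (0.49 to 0.52), and Kdr lost it without control replicate 1 (0.47) or knockout replicate 1 (0.34). Of 5 measured choroid plexus markers 2 rose, Folr1 (0.57) and Clic6 (0.48), and Otx2 fell (-0.51), and 1 rose without knockout replicate 1 or knockout replicate 2, namely Clic6 (0.54) without knockout replicate 1 and Ttr (0.20) without knockout replicate 2. Folr1 passed in neither fit (0.56 and 0.58), and Clic6 did not pass without knockout replicate 2 (0.42). The part of these cell populations in the Ebf values was not tested.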

How the data were processed

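The authors deposited linear intensities per probe set. Per the submitters' processing notes they used MAS5 (5.0). No genome build is named in these sources. With 2% of values trimmed from each end, every array averaged 1000, so arrays had been scaled to 1 level, which would remove a shift of most transcripts. No detection calls were used. Of 45101 probe sets, 64 controls were left out. Symbols came from the platform annotation, where 34945 probe sets had 1 symbol, 932 several and 9160 none. Signals were taken as log2(signal + 16), which understates changes of dim genes, and kept where the mean exceeded the 40th percentile (signal 154.6). The comparison was fitted with lmFit and eBayes with a variance trend in limma 3.58.1 under R 4.3.3, with Benjamini-Hochberg adjustment over 27022 probe sets and a threshold of 0.05. Rose and fell refer to that threshold. SEs are of the log2 change, and a gene was read at its brightest probe set, giving 12489 genes. With 2 arrays per group, their number limits the precision.

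The members and the 13 gene lists were chosen with earlier results of these data known. Named were all Ebf probe sets, up to 4 called genes per list by size of change, all called partners and helix-loop-helix factors, and the 4 most alike genes per Ebf gene. Tcf3, Tcf12, Tac1, Pdyn, Penk, Reln, Trp73, Calb2, Cxcr4, Tbr1, Car10, Dmrt3, Cdkn1a, Dmrta2, Neurod6, Ttr, Nkx6-1, Tal2, Calb1, Gnal and Igll1 were added after their values were seen. So were Snap25, Syt1, Map2, Rbfox3, Gap43, Lhx3 and Tlx3. The steps were tested on simulated data. Settings varied in turn were the normalization (quantile, median centring), the pseudocount (1, 64), the filter (none, 60th percentile), the variance model (robust, no trend), the threshold (0.1), the arrays (each left out), the replicate block and the reading of a gene (probe set mean).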

Additional observations from a re-analysis of the deposited data

How the results depend on the processing

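Quantile normalization, median centring, another pseudocount or leaving out an array can move a log2 change, and they gave 88 values for the 11 tested Ebf probe sets. Of these, 82 were counted as within the spread between arrays, the pooled SD of the replicates, and 6 as beyond it. With 2 arrays per group, leaving 1 out cannot move a change beyond that spread, so those fits do not test it. The brightest Ebf2 probe set moved further with median centring (-0.90) and with a pseudocount of 64 (-0.90). Ebf1 1439789_at did so with a pseudocount of 64 (-1.19). The rest of the 6 exceeded the spread only by rounding. They were the brightest probe set of Ebf2 without control replicate 1 (-0.92) and that of Ebf3 without knockout replicate 1 (-1.58) or knockout replicate 2 (-1.16). With an array left out, the brightest probe set of Ebf1 ranged from -1.5 to -1.31, that of Ebf2 from -0.95 to -0.92, that of Ebf3 from -1.58 to -1.16 and that of Ebf4 from 0.31 to 0.47. The filter, the variance model and the block leave a log2 change as it is.

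Counts of calls depended on the variance model and on the array left out. Without the variance trend 3114 probe sets changed (1471 rose, 1643 fell), against 6277, and 47 genes of the 13 lists changed, against 83. In that limma fit 0 Ebf partners rose (1 at an unadjusted p under 0.05) and 1 fell, 2 helix-loop-helix factors rose, 1 Cajal-Retzius gene rose and 1 brainstem or cerebellar gene rose. Also in it, 0 genes of pericytes, meninges and fat rose (5 at an unadjusted p under 0.05), 0 olfactory genes rose (1 unadjusted), 0 choroid plexus markers fell (1 unadjusted) and 1 rose, 1 endothelial marker and 2 progenitor genes rose, and 5 genes of young neurons fell and 1 rose. Without the signal filter 3 genes of pericytes, meninges and fat and 2 endothelial markers rose, and 1 partner, 2 helix-loop-helix factors, 1 Cajal-Retzius gene and 1 brainstem or cerebellar gene rose, and 1 helix-loop-helix factor fell. With the filter at the 60th percentile 1 helix-loop-helix factor fell and 1 brainstem or cerebellar gene rose. With 1 array left out, 3132 to 5422 probe sets changed (1458 to 2611 rose, 1674 to 2811 fell), as did 54 to 69 list genes. The ranges were 0 to 2 partners that rose and 2 to 3 that fell, 2 to 3 helix-loop-helix factors that rose and 1 to 2 that fell, and 0 to 1 striatal genes that rose and 6 to 7 that fell. They were 0 to 2 Cajal-Retzius genes that rose and 4 to 6 that fell, and 0 to 2 brainstem or cerebellar genes that rose and 8 to 10 that fell. Each 0 in these ranges is from limma without knockout replicate 1, where 3 partners, 1 striatal, 2 Cajal-Retzius and 1 brainstem or cerebellar gene rose at an unadjusted p under 0.05, and for the partners also without control replicate 2, where 3 did. A fit without 1 array has fewer samples and takes the lone array to vary like the pair. The cause of the other differences was not tested.

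The replicate numbers did not mark shared deviations (correlation of 0.00283), and with the replicate block 6844 probe sets changed. Of the 48 genes picked from the lists by size of change or as called partners and helix-loop-helix factors, 21 kept their call under every alternative that tested them. Without the variance trend 20 of the 48 lost it, among them Smarca4, Otx2, Col1a2 and Col3a1, without the signal filter 12, with median centring 3 (Tcf4, Vim, Neurod1), with quantile normalization 2 (Tcf4, Vim) and with probe sets averaged per gene 3 (Nes, Rgs5, Neurod1). With that averaging 4 choroid plexus markers and 1 gene of young neurons rose. Depth cannot be given for arrays, and the dim Ebf1 probe set 1457441_at lies where signals have little precision.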
